A study of Homo sapiens with 6 samples.

Results

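Replication-dependent histone genes encode the linker histone H1 and the core histones H2A, H2B, H3 and H4 that package newly made DNA during S phase. Members were taken by gene name from the count table, as the names of the replication-dependent H1, H2A, H2B, H3 and H4 series including H4-16, and numbered 78 of the 61541 genes. They were 66 coding genes and 12 pseudogenes, with 5 members in the H1 family, 21 in H2A, 21 in H2B, 15 in H3 and 16 in H4. On GRCh38, 64 of them lay on chromosome 6 (between positions 25723397 and 27893891), 13 on chromosome 1 (149782689 to 149887965) and H4-16 alone on chromosome 12.

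The libraries were bulk RNA-seq of H9, an established T-cell lymphoma line of wild-type genotype that the study chose as a line that does not depend on MCL-1. H9 cells were treated with vehicle (DMSO, 3 libraries) or with AZD4573, a selective inhibitor of the kinase CDK9, at 50 nM for 4 h (3 libraries). All libraries came from this 1 line, and nothing in the labels says whether replicates were separate cultures, so p-values measure only the spread between these libraries. The question was how transcripts respond when CDK9, which releases paused RNA polymerase II, is inhibited.

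Total counts were 70367303 to 76571157 per DMSO library and 52101868 to 63795185 per AZD4573 library, so 3 counts, the limit that a count of 0 allows, stood for 0.0382 to 0.0590 normalised CPM. CPM values here are counts scaled to the library's effective size, which edgeR's TMM factors set. The limit does not include PCR duplication, as reads carried no molecular identifiers. Of the T-cell markers, CD3D, CD3E, CD3G, TRAC, TRBC1 and TRBC2 were all present, some others were low, and CD2 was at or near 0. The summed level of 11 T-cell markers was 1255 to 1317 CPM with DMSO and 1764 to 1792 with AZD4573. Of 5 myeloid markers, summed levels were at most 0.649 CPM. Of the B-cell markers, CD79A had 55.0 to 60.9 CPM with DMSO and 88.5 to 98.4 with AZD4573. The other B-cell markers were lower, with MS4A1 and PAX5 at or near 0. Epithelial markers summed to 149 to 167 and 132 to 137 CPM, nearly all EPCAM, with KRT14 at 0. Their part in the results was not tested.

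Most mRNAs end in a poly(A) tail. Replication-dependent histone mRNAs instead end just after a short stem-loop that the stem-loop binding protein SLBP holds, and the U7 snRNP guides the cut that makes this end. Some histone genes also make polyadenylated RNA by reading on to a poly(A) signal, and CDK9 and the negative elongation factor NELF have been linked to the choice of histone 3′ end. The labels describe poly(A) RNA, whereas the supplemental methods describe depletion of ribosomal RNA. Under poly(A) selection a count would show mainly the polyadenylated part of a histone gene's RNA.

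The stem-loop is shown first because it sets what a poly(A) library can see. A hairpin of 16 bases (6-base arms and a 4-base loop that starts with T, with at most 1 G:T pair) was found in all 66 coding members. By contrast, only 0.369% of 20046 coding genes carried such a hairpin in the last 60 bases of a transcript, and of those 74 genes, 65 were members. The most common form was shared by 38 members. The H4 genes used arms of another sequence, of which 10 had the loop TTTC and 4 the loop TTTT, and 8 members of other families carried the loop TTTA. These examples give the DNA of the gene's strand, 5′ to 3′, from the GRCh38 genome, with the hairpin in capitals.
H1-2 (chr6:26055744-26055759, minus strand, form of 38 members): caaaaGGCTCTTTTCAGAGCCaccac
H2BC12 (chr6:27146366-27146381, minus strand, form of 8 members): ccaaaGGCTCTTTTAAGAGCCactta
H4C11 (chr6:27824459-27824474, plus strand, form of 10 members): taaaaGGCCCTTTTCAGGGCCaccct
H4C12 (chr6:27831178-27831193, minus strand, form of 4 members): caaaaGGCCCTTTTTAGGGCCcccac
H3C6 (chr6:26225596-26225611, plus strand, in this member alone): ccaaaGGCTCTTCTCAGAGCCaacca

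A poly(A) signal, AATAAA on the gene's strand, was searched in the 1000 bases past each hairpin. It was present for 31 of 66 coding members (47.0%), compared with 43.8% of 4084 other coding gene ends on the same chromosomes. For the other genes the search began at the annotated gene end and not at a hairpin, so the shares do not compare like stretches. Of those ends, 0.735% had AATAAA starting within 18 bases, and in 4 members (6.06%) it started within 18 bases of the hairpin. These are shown because their levels were among the highest, with the last 6 bases of the hairpin and the AATAAA in capitals.
H1-2 (chr6:26055720-26055749, minus strand): AGAGCCaccactgatctcAATAAAagagct
H2BC5 (chr6:26158597-26158626, plus strand): AGAGCCacgcatgttttcAATAAAtgagtt
H2AC18 (chr1:149842199-149842228, minus strand): AGAGCCacccacgttttcaAATAAAagagt
H2AC19 had the same letters as H2AC18, on the plus strand at chr1:149851584-149851613. The match is a description of these letters and not of a used site.

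Levels of the coding members were low and uneven. All 78 members together took 0.0118% to 0.0135% of the counts with DMSO and 0.0152% to 0.0164% with AZD4573. H2BC12 alone, an H2B gene, took 33.1% to 37.0% of the members' counts with DMSO and 28.6% to 32.4% with AZD4573. The first 8 members by level held 70.8% and 75.6% of the summed CPM. At the other end, 20 members had at most 10 counts in every library, and 10 of these (5 coding) had 0 counts in all 6 libraries. The coding members at 0 were H1-1, H2AC1, H2BC1, H4C6 and H4C7.

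On the scale of CPM per kb of exon, averaged over the 6 libraries, H2BC12 stood at 92.4. The 4 members with AATAAA close to the hairpin had a median of 12.8 CPM per kb (range 5.63 to 22.5), and the other 62 coding members a median of 0.478. Of these 4, H2AC18 and H2AC19 are near-identical copies that could not be counted apart. The 16 members whose annotated models run more than 100 bases past the hairpin or have several exons had a median of 0.394. The 50 members without such a model had 0.580. Exon lengths count all annotated models and reached 4265 bases in the former group (H2BC15), and longer exons lower CPM per kb. These medians thus do not compare levels alone. H2BC12 had neither feature in the annotation. On a list of 7 members known for polyadenylated forms (H1-2, H2AC6, H2BC4, H2BC5, H2BC12, H2BC21 and H4C8), the median was 3.69 CPM per kb, against 0.482 for the other 59. The levels were thus spread widely within the list, from 0.385 for H2BC4 to H2BC12.

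**Figure D1:**
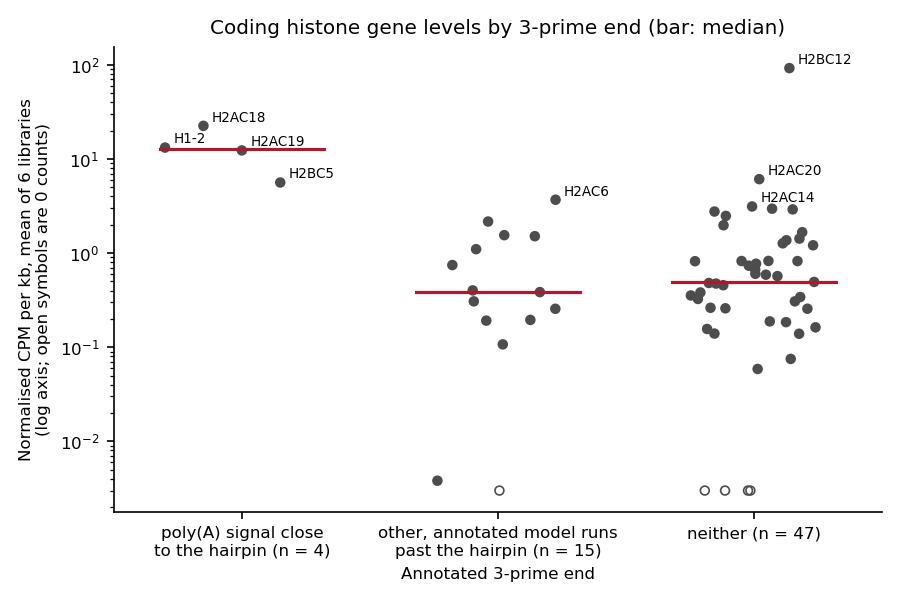
Level of each of the 66 coding members, in normalised CPM per kb of exon averaged over the 6 libraries (vertical log axis), by what lies at the annotated 3′ end (horizontal groups). The middle group also takes members with a model of several exons. Red bars are medians and open symbols are members with 0 counts. The 4 members with a poly(A) signal close to the hairpin sit between 5.63 and 22.5, and H2BC12, at 92.4, sits in the group with neither feature. Of the 4, H2AC18 and H2AC19 are near-identical copies that could not be counted apart.

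In the comparison of AZD4573 with DMSO, the members did not move as a block. Of the 78 members, 51 passed the filter on low counts (49 coding genes and 2 pseudogenes), and 27 did not, among which the highest count was 32. With both an adjusted p under 0.05 and a change of 1.5-fold or more required for a call, 2 members were lower, 8 were higher and 41 were neither. In bulk RNA, fewer S-phase cells and less RNA per cell cannot be told apart. Over all 17678 genes tested, 23.7% were called lower and 22.7% higher. The members' groups of libraries did not overlap for 4 lower and 13 higher members, against 38.7% lower and 39.0% higher of all genes tested. The median log2 fold change was 0.14 over the members that passed and 0.03 over all genes tested. Their median standard error was 0.351, and that of all genes 0.0885, so that a change of a given size was harder to call among histones.

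The direction of these values depended on the scaling. With libraries scaled to the 13 mitochondrially encoded mRNAs, the median of all genes shifted by -0.74. These mRNAs made up 3.04% to 3.22% of the counts with DMSO and 4.67% to 4.98% with AZD4573. With this scaling, 15 of the 51 members tested were lower and 2 higher. Of all 17678 genes tested, 9433 were then lower and 1769 higher. The members called included H2AC19, H4C11 and H4C12, which have near-identical copies and could not be counted singly. Summed CPM over all members was 120 ± 8.64 (SD, n = 3) with DMSO and 163 ± 7.32 (n = 3) with AZD4573. This ratio of 1.36 became 0.817 with the mitochondrial scaling. Over the coding members alone the ratio was 1.23, and 0.738 with the mitochondrial scaling. Shares of the members' own counts do not depend on the scaling, and they are given where they bear on a result.

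**Figure D2:**
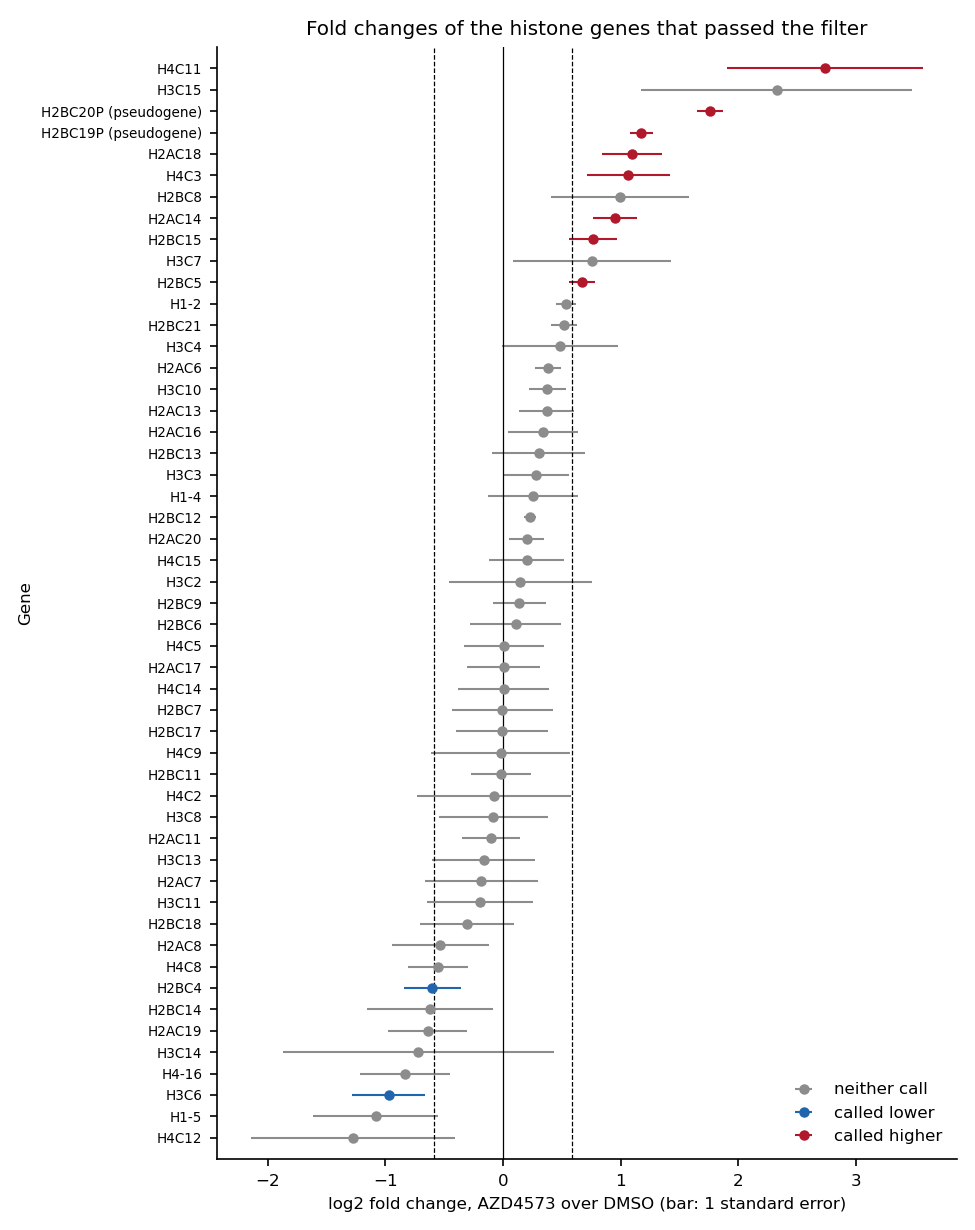
log2 fold change of AZD4573 over DMSO (horizontal axis) for the 51 members that passed the filter, each with 1 standard error; dashed lines mark a fold change of 1.5. The 8 members called higher (red) and the 2 called lower (blue) stand among 41 with neither call. With the mitochondrial scaling 2 are called higher and 15 lower, against 1769 higher and 9433 lower of all 17678 genes tested.

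The rises with the smallest adjusted p were in a pair of H2B pseudogenes on chromosome 1. Pseudogenes are copies that have lost the original reading frame or function. H2BC20P (ENSG00000261716, chr1:149850193-149850772) had 4.16, 5.54 and 5.12 CPM with DMSO and 15.1, 17.1 and 17.8 with AZD4573. Its AZD4573 libraries all lay above its DMSO libraries, with a log2 fold change of 1.76 ± 0.11 (SE, adjusted p = 5.59e-09). H2BC19P (ENSG00000220323, chr1:149843041-149843533) had 4.49, 5.15 and 5.74 CPM with DMSO and 11.6, 11.1 and 11.99 with AZD4573. It rose likewise without overlap, by 1.17 ± 0.10 (adjusted p = 1.48e-07).

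The sequences of these pseudogenes match at 487 of the 493 bases of the shorter (98.8%), so reads could be split between them. The share of their counts given to H2BC19P was 48.2% to 52.9% with DMSO and 39.4% to 43.3% with AZD4573. Summed before the fit, the pair rose by 1.49 ± 0.09 (adjusted p = 2.79e-09), from 10.1 ± 1.24 to 28.3 ± 1.55 CPM. As a share of all members' counts, the pair went from 7.43%, 9.41% and 8.37% to 16.8%, 17.8% and 17.3%. With the mitochondrial scaling H2BC20P kept its call (1.02), whereas H2BC19P had 0.44 and lost it by the fold. The 12 pseudogenes summed, of which the other 10 held almost no counts, had a ratio of 1.68 with that scaling and 2.80 with TMM. GENCODE release 44 places both inside long non-coding RNA genes that were not rows of the count table, and the reads of such RNAs cannot be told apart from those of the pseudogenes here.

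Each of these pseudogenes lies head to head with an H2A gene. H2AC19 and H2BC20P are separated by 288 bases, and H2AC18 and H2BC19P by 290 bases, of which 288 match between the stretches. The stretch between H2BC20P and H2AC19 is printed because the member whose rise had the smallest adjusted p starts at its left edge, read 5′ to 3′ on the H2AC19 strand. Capitals mark CCAAT on either strand (1 as CCAAT and 1 as ATTGG) and TATAAA (1).
H2BC20P to H2AC19 (chr1:149850773-149851060, plus strand): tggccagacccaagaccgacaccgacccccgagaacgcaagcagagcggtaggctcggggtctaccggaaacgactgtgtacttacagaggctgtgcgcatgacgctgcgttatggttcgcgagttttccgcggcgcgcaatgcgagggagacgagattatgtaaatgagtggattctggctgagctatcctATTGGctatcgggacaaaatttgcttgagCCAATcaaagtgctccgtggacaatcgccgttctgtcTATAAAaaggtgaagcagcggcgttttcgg
These motifs are common at histone genes. In the RefSeq promoter windows on GRCh38.p14, of 300 bases each, CCAAT on either strand was present in 51 of the 60 coding members that matched by symbol (85.0%) and in 35.7% of all 27305 promoters. TATAAA on the gene's strand was present in 36 of 60 members and in 7.71% of all promoters.

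The H2A neighbours are copies of each other and could not be counted apart. H2AC18 and H2AC19 share their coding sequence, and the transcripts are identical over all 533 bases of the shorter. Taken singly, H2AC18 (chr1:149842218-149842750) had 7.72, 11.2 and 4.03 CPM with DMSO and 12.6, 17.1 and 19.4 with AZD4573, a rise of 1.10 ± 0.26 (adjusted p = 0.00155). H2AC19 (chr1:149851061-149851594) had 8.58, 3.70 and 11.7 CPM with DMSO and 7.57, 4.60 and 3.38 with AZD4573 (log2 fold change -0.64 ± 0.34, adjusted p = 0.103). In DMSO the copies mirrored each other, since where one was high the other was low. Their sum was 16.3, 14.9 and 15.8 CPM with DMSO and 20.2, 21.7 and 22.8 with AZD4573. The summed pair was higher without overlap by 0.46 ± 0.07 (adjusted p = 3.03e-05) and stayed under the fold of 1.5.

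The same held for 3 other pairs with 1 coding sequence. H4C14 and H4C15 have transcripts identical over the 396 bases compared, and H4C14 was given 68.3%, 51.9% and 16.6% of their counts with DMSO and 21.9%, 48.4% and 48.7% with AZD4573. Their sum was 4.72 ± 0.47 CPM with DMSO and 5.10 ± 0.98 with AZD4573 (log2 fold change 0.12 ± 0.14, adjusted p = 0.459). H4C11 and H4C12 match at 385 of 387 bases. H4C11 alone had 64, 0 and 0 counts with DMSO and 118, 138 and 55 with AZD4573 and was called higher (2.74 ± 0.83, adjusted p = 0.00899), whereas H4C12 had 70, 109 and 182 counts and then 0, 0 and 117 (-1.28 ± 0.87, adjusted p = 0.197). The pair's sum was 1.71, 1.49 and 2.47 CPM with DMSO and 2.32, 2.42 and 2.82 with AZD4573, which overlapped (0.42 ± 0.19, adjusted p = 0.0629). The single call of H4C11 was therefore not present in the sum, and DESeq2 did not make it either (adjusted p = 0.305).

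H3C14 and H3C15, H3 genes with transcripts identical over 518 bases, showed the split most plainly. H3C14 held all of the pair's counts in DMSO replicates 1 and 3 and AZD4573 replicate 3, and none in the other libraries, where H3C15 held them. Summed, they had 34, 25 and 88 counts with DMSO and 58, 34 and 58 with AZD4573 (log2 fold change 0.45 ± 0.42, adjusted p = 0.345). With these 4 pairs each summed into 1 row, 2 members were lower and 6 higher, and H2AC18 and H4C11 were no longer among them.

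**Figure D3:**
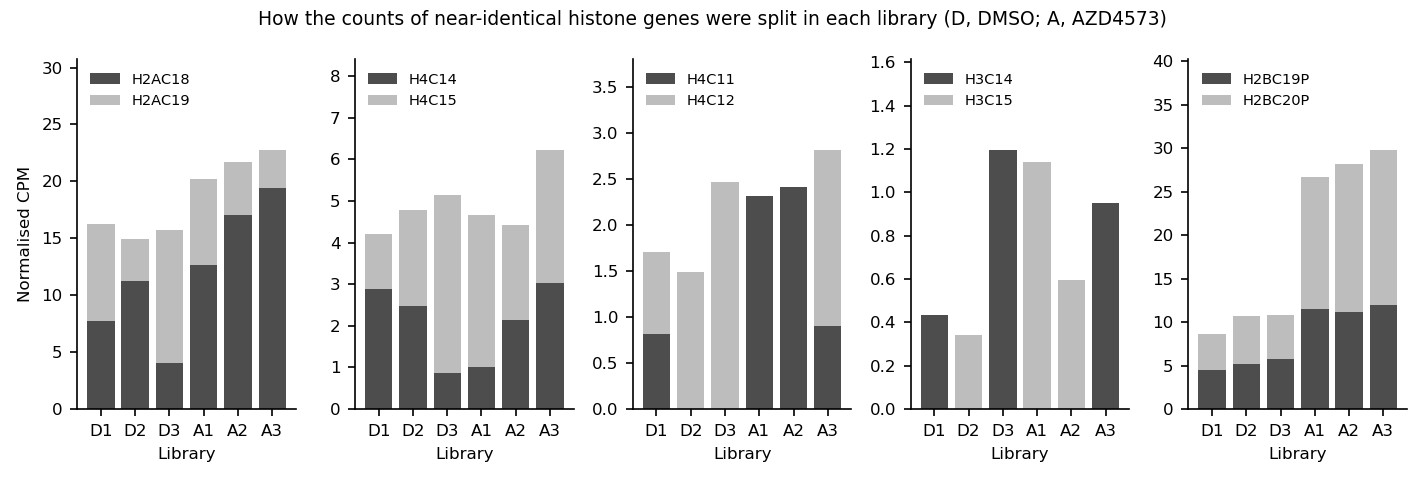
Normalised CPM (vertical axes, from 0) of 5 pairs of near-identical histone genes in each library (D1 to D3, DMSO replicates; A1 to A3, AZD4573 replicates), with the first gene of each pair in dark grey and the second in light grey. The split between copies changed from library to library, from 0% to 100% for H3C14 and H4C11, while the summed H2AC18 and H2AC19 bars sit between 14.9 and 16.3 in DMSO and between 20.2 and 22.8 in AZD4573.

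Members known for polyadenylated forms moved in different directions. H2BC12 (ENSG00000197903, chr6:27146361-27146855, single exon) had 43.1, 40.3 and 42.9 CPM with DMSO and 51.7, 47.3 and 49.2 with AZD4573. It was higher without overlap, by 0.23 ± 0.05 (adjusted p = 0.00154), under the fold of 1.5. H1-2, a linker histone, had 8.13, 7.95 and 7.59 CPM with DMSO and 10.5, 11.7 and 12.2 with AZD4573 (0.54 ± 0.08, adjusted p = 6.14e-05). H1-2 thus also kept its groups apart. H2AC6 (H2A) had 5.46, 5.16 and 5.44 CPM and then 6.03, 6.97 and 7.90 (0.38 ± 0.11, adjusted p = 0.00633). H2BC21 (H2B) had 3.88, 3.62 and 4.40 CPM and then 5.88, 5.67 and 5.49 (0.52 ± 0.11, adjusted p = 0.000809). These 4 genes were thus higher in all AZD4573 libraries, at less than 1.5-fold, and had negative values with the mitochondrial scaling.

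H2BC5 (chr6:26158122-26171349) was the only one of the 7 that was called higher. It had 3.63, 3.43 and 4.14 CPM with DMSO and 6.03, 5.74 and 6.11 with AZD4573 (0.67 ± 0.11, adjusted p = 8.38e-05), and it lost the call with library size only (0.57) and with the mitochondrial scaling (-0.0625). H2BC4 (chr6:26086317-26123926) was called lower, with 1.45, 1.11 and 1.45 CPM with DMSO and 1.00, 0.597 and 1.05 with AZD4573. Its groups did not overlap, but the fall of 0.60 ± 0.24 on the log2 scale passed narrowly (adjusted p = 0.0389) and missed the threshold with DESeq2 (adjusted p = 0.0591) and without DMSO replicate 1 (0.096), DMSO replicate 3 (0.0988) or AZD4573 replicate 2 (0.151). Exons of H2BC4 overlap 430 bases of HFE, an iron-uptake regulator, which itself rose by 0.83 ± 0.21, from 0.692 to 1.05 CPM with DMSO to 1.38 to 1.71 with AZD4573, and the counting did not use strand. H4C8 had 0.982, 0.928 and 1.19 CPM and then 0.648, 0.544 and 0.918, without overlap but not past the test (-0.55 ± 0.26, adjusted p = 0.0664).

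**Figure D4:**
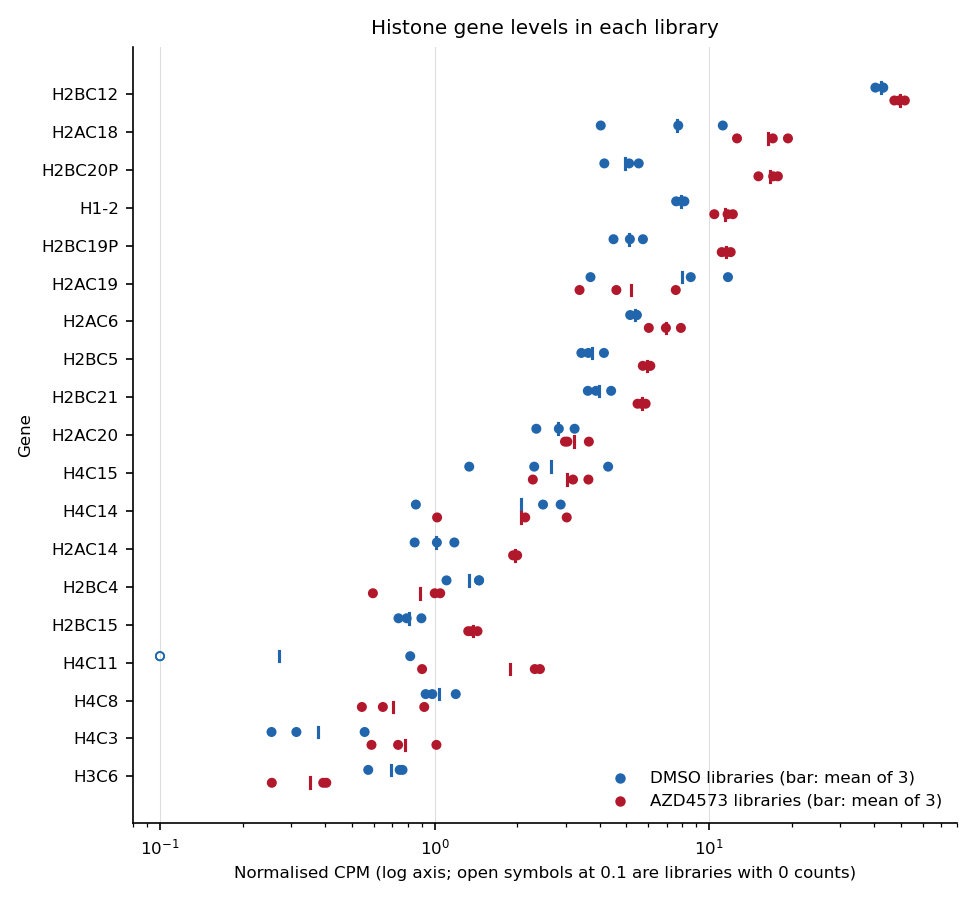
Normalised CPM (log axis) of 19 named members in each of the 3 DMSO (blue) and 3 AZD4573 (red) libraries, with a bar at each group's mean; open symbols at 0.1 are libraries with 0 counts (H4C11, DMSO replicates 2 and 3). H2BC12 sits highest, between 40.3 and 51.7, and the red points of H2BC20P and H2BC19P lie to the right of all their blue points, while those of H2BC4, H4C8 and H3C6 lie to the left; values of H2BC12, H1-2, H2AC6, H2BC5 and H2BC21 reverse with the mitochondrial scaling.

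The other calls were in genes of low counts. H2AC14, an H2A gene, had 80, 62 and 87 counts with DMSO and 100, 114 and 118 with AZD4573, and rose by 0.95 ± 0.18 (adjusted p = 0.000375). Its transcript matches that of H2AC13 at 458 of the 476 bases of the shorter (96.2%), and these genes were not summed. H2AC13 overlapped between groups (0.37 ± 0.23, adjusted p = 0.164). H2BC15, whose annotated exons span 4265 bases, had 0.739, 0.792 and 0.896 CPM and then 1.43, 1.37 and 1.33 (0.77 ± 0.20, adjusted p = 0.0036). H4C3 had 20, 23 and 41 counts with DMSO and 30, 42 and 62 with AZD4573 (1.06 ± 0.35, adjusted p = 0.0143), and in CPM its lowest AZD4573 library (0.590) lay just above its highest DMSO library (0.557). H4C3 lost its call without DMSO replicate 1 (adjusted p = 0.0584) or AZD4573 replicate 3 (0.0898). H2AC14, H2BC15 and H4C3 were no longer past the threshold with the mitochondrial scaling.

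H3C6 was the member with the firmest fall. It had 45, 56 and 55 counts with DMSO and 13, 23 and 24 with AZD4573, or 0.574 to 0.765 and then 0.256 to 0.404 CPM. Its log2 fold change was -0.97 ± 0.31 (adjusted p = 0.011), and it kept the call under every alternative run for it except a fold change of at least 2. Of the named members, H2AC20 (2.35 to 3.24 CPM with DMSO and 2.99 to 3.65 with AZD4573) overlapped between groups (0.20 ± 0.15, adjusted p = 0.243).

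By family, 4 of 16 H2B members tested were called higher and 1 lower, 2 of 11 H2A members higher, 2 of 10 H4 members higher, 1 of 11 H3 members lower and none of 3 H1 members either way. Over all genes tested 22.7% were called higher and 23.7% lower. The H2A and H4 counts include H2AC18 and H4C11, whose calls were not present in the sums with their copies. With the mitochondrial scaling, the higher calls left were 1 in H2B and 1 in H4, the latter again H4C11. Of all 17678 genes tested, 1769 were called higher with that scaling. Summed CPM of the 21 H2B members was 66.7 ± 3.49 with DMSO and 96.3 ± 2.69 with AZD4573, a ratio of 1.44 that became 0.867 with the mitochondrial scaling. That sum includes the pseudogenes H2BC19P and H2BC20P, which together had 10.1 ± 1.24 CPM with DMSO and 28.3 ± 1.55 with AZD4573. Both pseudogenes are also among the H2B members called higher. The H2A sum was 29.2 ± 1.77 and then 38.4 ± 2.75 (ratio 1.31, and 0.785 with the mitochondrial scaling). The H1 sum, mostly H1-2, was 9.13 ± 0.44 and then 12.5 ± 1.01 (1.37, and 0.820). H3 and H4 sums overlapped between the groups, at 4.19 to 7.07 and 4.97 to 6.42 CPM for H3 and at 8.18 to 11.7 and 9.30 to 12.5 for H4.

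The 49 coding members outside the named ones, of which 32 passed the filter, held no call, because the naming rule took every called member. Their sum was 13.9, 15.6 and 24.5 CPM with DMSO and 16.5, 15.4 and 21.5 with AZD4573, so that the groups overlapped and the third DMSO library stood highest. DMSO replicate 3 was the highest DMSO library for 26 of these 32 genes (81.2%), where it was the highest for 29.1% of all 17678 genes tested. RNAs that normally have no poly(A) tail showed the same library, with summed values of 18.4, 21.1 and 39.2 CPM with DMSO. With AZD4573 they summed to 36.9, 31.6 and 28.9 CPM, in which the third library was not the highest. H2BC12 did not share this, at 42.9 CPM in DMSO replicate 3. The part of this library in the histone values was not tested, but without it the members' median log2 fold change was 0.44 in place of 0.14, with 1 member called lower and 10 higher. That median was 0.0005 without DMSO replicate 1, 0.0493 without AZD4573 replicate 3 and 0.221 without AZD4573 replicate 1, so that each of these 4 libraries moved it by more than 1.5 times.

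**Figure D5:**
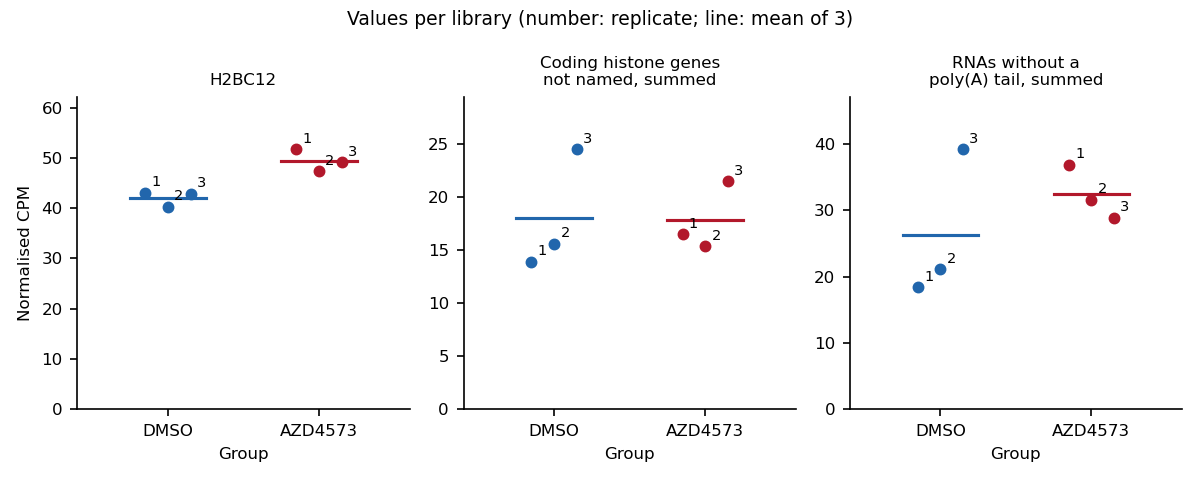
Normalised CPM (vertical axes, from 0) per library for H2BC12, for the sum of the 49 coding histone genes not named, and for the sum of 18 RNAs without a poly(A) tail; numbers are replicates and lines are means of 3. DMSO replicate 3 sits above the other DMSO libraries in the middle and right panels (24.5 and 39.2) and not in the left.

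Histone genes often lie head to head, an H2A gene beside an H2B gene. Members whose starts face each other within 500 bases formed 17 pairs, with 169 to 390 bases between them, and 16 of these joined an H2A and an H2B gene. Both genes passed the filter in 10 pairs, with log2 fold changes of the same sign in 5 and of opposite sign in 5. Several of these signs belonged to values smaller than their standard errors, so the tally does not show whether neighbours moved together. Examples are H2AC17 (0.006 ± 0.31) with H2BC17 (-0.01 ± 0.39), of opposite sign, and H2AC7 (-0.18 ± 0.48) with H2BC7 (-0.0051 ± 0.43), of the same sign. In 1 of the opposite pairs, H2BC20P with H2AC19, the sign of H2AC19 rests on its split from H2AC18, and the sum of those copies had 0.46. H2BC4 and H2AC6, 218 bases apart, were another of the opposite pairs, with -0.60 ± 0.24 and 0.38 ± 0.11. H2AC14 rose by 0.95 ± 0.18, while its neighbour H2BC14, 244 bases away, had 13, 11 and 9 counts and then 3, 9 and 4 (-0.62 ± 0.54, adjusted p = 0.309). H2BC12 and its neighbour H2AC12, 250 bases apart, differed mainly in level, with 2 to 10 counts per library for H2AC12.

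Of 21 genes of histone mRNA 3′ end processing tested (22 listed), 7 were lower, 1 was higher and 13 neither, with a median log2 fold change of -0.13. With the mitochondrial scaling 17 were lower and 0 higher. The background for this list and those that follow is the 23.7% of tested genes called lower and the 22.7% called higher with TMM. With the mitochondrial scaling, the background is 9433 genes lower and 1769 higher of the 17678 tested. The U7 snRNP protein LSM11 fell from 15.7 to 16.1 CPM in DMSO to 6.19 to 6.86 with AZD4573 (-1.29 ± 0.08). ZNF473, a zinc finger protein that helps the U7 snRNP to act, had -0.97 ± 0.06, and the NELF subunit NELFA -1.497 ± 0.07. SLBP had 244, 249 and 236 CPM with DMSO and 188, 186 and 178 with AZD4573, lower without overlap by less than 1.5-fold (-0.40 ± 0.04, adjusted p = 1.04e-06). CDK9, the target of the drug, was the gene called higher in this list, from 64.0 to 67.1 CPM to 121 to 123 (0.90 ± 0.04), a call it lost with the mitochondrial scaling. The U7 RNA gene RNU7-1 had 0 counts in every library.

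Of 9 genes listed for histone gene transcription (transcription factors, coactivators and their partners), 3 were lower and none higher, and 7 were lower with the mitochondrial scaling. NPAT, the coactivator of histone gene transcription in S phase, had 36.2, 34.7 and 36.5 CPM with DMSO and 18.6, 19.3 and 18.9 with AZD4573 (-0.92 ± 0.05). CASP8AP2, its partner at histone locus bodies, had -0.66 ± 0.05, and GON4L -0.85 ± 0.06. Of 11 genes of histone mRNA translation and decay, 4 were lower and none higher, and 10 were lower with the mitochondrial scaling. ERI1, the exonuclease that trims histone 3′ ends, had 69.5 to 72.0 CPM and then 30.5 to 34.8 (-1.12 ± 0.06). TUT7, which adds uridines to RNA ends, had -1.75 ± 0.10 and PNRC2, a decapping factor, -1.70 ± 0.05.

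Histone chaperones (5 lower, 0 higher, 18 neither of 23) and S-phase genes (6 lower, 0 higher, 20 neither of 26) had medians of -0.08 and -0.19. These counts lay near the 23.7% of all genes called lower. With the mitochondrial scaling, 17 chaperones and 19 S-phase genes were lower, as were 9433 of all 17678 genes tested. With library size only, 10 S-phase genes and 4766 of all genes were lower. The largest falls among chaperones were in ASF1A (-1.03 ± 0.05), the CAF-1 subunit CHAF1A (-0.93 ± 0.04) and DNAJC9 (-0.81 ± 0.04). Among S-phase genes CCNE2, a cyclin of S-phase entry, fell by 2.10 ± 0.10 on the log2 scale and RRM2, a subunit of the enzyme that makes deoxynucleotides, by 1.66 ± 0.05, followed by UHRF1, a reader of newly made DNA (-1.03 ± 0.05). All 3 named S-phase genes were lower in every AZD4573 library than in any DMSO library.

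Variant and other histone genes outside the naming rule moved in both directions. Of 12 tested, 2 were lower, 3 higher and 7 neither (4 lower and 0 higher with the mitochondrial scaling), with a median of 0.34. H2AX, the H2A variant phosphorylated at DNA breaks, had 304, 271 and 262 CPM with DMSO and 108, 107 and 111 with AZD4573 (-1.36 ± 0.05, adjusted p = 1.47e-10). The centromeric H3 variant CENPA had 16.6, 15.5 and 16.2 CPM and then 6.58, 7.19 and 7.06 (-1.21 ± 0.08, adjusted p = 6.82e-09). The higher genes were MACROH2A2 (1.00 ± 0.27), H2AJ (0.75 ± 0.26) and H2BU1 (0.66 ± 0.20), each at most 2.18 CPM, and none of them kept the call with the mitochondrial scaling.

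Among 18 RNAs that normally lack a poly(A) tail, 9 were at 0 in every library and 7 passed the filter, of which 2 were higher and none lower. RN7SK, the RNA that holds the CDK9 complex P-TEFb inactive, had 1.54, 2.62 and 4.40 CPM with DMSO and 5.52, 6.79 and 6.21 with AZD4573 (1.12 ± 0.26, adjusted p = 0.00149). SNORD3A, the U3 small nucleolar RNA, had 0.115, 0.218 and 0.285 CPM and then 2.77, 2.17 and 2.05 (3.49 ± 0.29, adjusted p = 1.08e-07). Both were separated between the groups, whereas the summed list was not, and with the mitochondrial scaling 1 of the list was called higher and 2 lower.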

How the data were processed

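The series held bulk RNA-seq of H9 cells, 3 libraries with DMSO and 3 with AZD4573, grouped by their labels. The authors trimmed reads with Cutadapt 2.3, aligned them to GRCh38 with STAR 2.7.8a and deposited the expected count of each gene from RSEM 1.3.3. By default, RSEM ignores strand and divides reads that match several genes. The values were whole numbers, unnormalized, and the annotation release is not given in the sources used here. A further 5 rows named no gene and held 0 counts.

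Counts were filtered (edgeR 4.0.16, R 4.3.3, minimum count 10, 17678 genes kept), scaled by TMM and tested by edgeR's quasi-likelihood method, with p-values adjusted over every tested gene (Benjamini-Hochberg). A call was an adjusted p under 0.05 with a fold change of at least 1.5. Standard errors were the log2 fold change divided by the square root of F, and errors of CPM are SD. The members and lists were chosen with earlier results of these data known. Named members were the 12 with the highest mean CPM, up to 8 falls and 8 rises by log2 fold change among those called, and the list known for polyadenylated forms (19 in all). From the other lists, the rule took at most the 3 largest falls and 3 largest rises called, with SLBP, NPAT, RNU7-1 and CDK9 whatever their call. The copies H4C12, H3C14 and H3C15, the close match H2AC13, the neighbours H2BC14 and H2AC12, and HFE were named after their values were seen.

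Positions, exons, hairpins and identities were computed from GENCODE release 44 and the GRCh38 genome with Biopython 1.88. Replicate numbers do not pair the libraries (correlations of same-numbered deviations -0.0208, 0.0417 and 0.0316). No libraries of a group were the same within sampling noise (chi-square over degrees of freedom 5.62 to 21.5 for pairs of replicates). On simulated data for this comparison (17678 genes), detection meant an adjusted p under 0.05 with the right sign and no fold threshold. So defined, edgeR detected 100 of 100 genes changed by 1.5 on the log2 scale and 90 of 100 changed by 0.8. Of 17478 unchanged genes, 18 had an adjusted p under 0.05. The changed genes were drawn from means above 1 CPM, so these rates do not cover the many members below that level. Alternatives were RLE factors, library size only, mitochondrial scaling, other filters, each library left out, a replicate block, DESeq2 1.42.0, other fold thresholds, coding members only and copies with 1 coding sequence summed. Summing H2BC19P and H2BC20P as well was added after the data were seen. 1 of the marker genes is not reported here.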

Additional observations from a re-analysis of the deposited data

How the results depend on the processing

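The main comparison called 2 members lower and 8 higher. Members called lower numbered 1 with DESeq2 and 1 with at least 10 counts in every library (H3C6 in both), 4 with library size only, 5 without a filter on low counts, 15 with the mitochondrial scaling and 0 at a fold change of at least 2. With 1 library left out they numbered 1 to 5, with 1 without DMSO replicate 3 or AZD4573 replicate 2 and 5 without DMSO replicate 2 or AZD4573 replicate 3. Members called higher numbered 2 with the mitochondrial scaling (H2BC20P and H4C11), 5 at a fold change of at least 2, 13 with no fold threshold, 5 with identical copies and the pseudogene pair summed, and 7 to 10 with 1 library left out. With the mitochondrial scaling, 9433 of all 17678 genes tested were lower and 1769 higher. H4C11, and H4C12 and H2AC19 among the 15 lower, are copies whose single values rest on how counts were split. The replicate block, for numbers that do not pair the libraries, gave 3 lower (H4C12 added) and 9 higher (H3C15 added). With RLE factors the counts were again 2 and 8, and with coding members only 2 and 6. The causes of these moves were not tested, except that summing copies leaves fewer rows.

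Under the mitochondrial scaling, values turned negative for H2BC12 (-0.51), H1-2 (-0.20), H2AC6 (-0.36), H2BC5 (-0.0625), H2BC21 (-0.22), H2AC20 (-0.54), H4C15 (-0.53) and H4C14 (-0.75), where the median of all genes moved to -0.71. The value of H4C14, near 0, also changed sign with DESeq2 (-0.0026), library size only (-0.10) and no filter (-0.0395), and with 1 library left out it ranged from -0.386 to 0.315. H4C15 ranged from -0.133 to 0.725 with 1 library left out. Of 272 alternative values of the 19 named members, 237 kept their direction and their side of an adjusted p of 0.05, the fold threshold left aside, and H2BC19P, H2BC20P and H3C6 did so under all. With the fold threshold included, H2BC19P lost its call under the mitochondrial scaling (0.438) and H2BC5 with library size only (0.57). The median standard error was 0.351 over the members tested and 0.0885 over all genes.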
